A study of Mus musculus with 8 samples.

Results

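The genes described here are 44 genes of the cell cycle and of DNA replication, matched by symbol among the 55276 gene symbols of the deposited tables. They were split into 18 replication genes (Mcm2 to Mcm7, Pcna, Rrm1, Rrm2, Tyms, Tk1, Gins1, Cdc6, Cdt1, Cdc45, E2f1, Ccne1 and Ccne2) and 26 mitotic genes (Mki67, Top2a, Ccnb1, Ccnb2, Ccna2, Cdk1, Bub1, Bub1b, Aurka, Aurkb, Plk1, Birc5, Kif11, Kif20a, Kif23, Tpx2, Cenpa, Cenpe, Cenpf, Ndc80, Nuf2, Prc1, Anln, Ttk, Ube2c and Cdc20), and all 44 passed the filter on low values in every comparison. RNA was sequenced from GFP+ fibro-adipogenic progenitors (FAPs), the connective tissue progenitors of skeletal muscle, sorted as cells without CD45, CD31 and TER119 from the tibialis anterior at 3 and 7 days after a freeze injury (dpi). Mice were 4 to 6 months old. Control FAPs came from Osr1flox/+ CAGG Cre+ mice and Osr1cKO FAPs from Osr1flox/flox CAGG Cre+ mice. The Cre driver is active throughout the body once tamoxifen is given. Mice of both genotypes received tamoxifen on the day of injury and on the next 2 days, and both carried GFP from a recombined Osr1 allele, so control cells had lost 1 Osr1 copy. The 4 groups had 2 libraries each, with 1 mouse behind a library at 3 dpi and a pool of 4 mice at 7 dpi.

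Before a cell copies its DNA, the Mcm helicase is loaded onto origins with the help of Cdc6 and Cdt1 and is then switched on together with Cdc45 and the Gins complex. E2F factors and cyclin E drive this entry into S phase, while ribonucleotide reductase, thymidylate synthase and thymidine kinase supply nucleotides. The mitotic genes act later, from the Cdk1 and cyclin B kinase to the kinetochore, the spindle and the anaphase-promoting complex, and their transcripts are scarce in resting cells. FAPs are known to divide in the first days after muscle injury and to return to rest as repair proceeds.

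The values are TPM, a level corrected for gene length and library size, and between 36518973 and 51091425 fragments per library could be recovered from them. All 12 FAP markers were detected in every group, with summed levels from 27238 TPM in control library 1 at 3 dpi to 56628 TPM. The leukocyte gene Ptprc (CD45), whose product was excluded in the sort, did not exceed 0.216 TPM. The highest values of the other myeloid markers ran from 0.476 TPM (Itgam) to 36.1 TPM (Lyz2), both in Osr1cKO library 2 at 7 dpi. Osr1 itself was at 105 and 91.0 TPM in control against 70.7 and 71.9 TPM in Osr1cKO libraries at 3 dpi, and at 67.6 and 71.6 against 64.4 and 60.8 TPM at 7 dpi. These are whole-gene values, not limited to the deleted part of Osr1, and so do not check the deletion. Transcripts of sex-linked genes did not match between the groups. At 3 dpi, Xist was between 33.9 and 52.9 TPM and Ddx3y, a gene of the Y chromosome, was listed at 0 in all 4 libraries. At 7 dpi, Ddx3y was at 47.5 and 48.6 TPM in control but at 10.5 and 2.22 TPM in Osr1cKO, and Xist was at 12.4 and 0.0252 TPM in control but at 110 and 103 TPM in Osr1cKO. Genotype at 7 dpi, and day in either genotype, therefore cannot be told apart from the sex of the mice.

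Short promoter words known from cell cycle genes were shared unequally between the sets. RefSeq promoter windows of GRCm38.p6 (the assembly of mm10), from 250 bases before to 50 bases after the start, were found for 37 of the 44 genes (all but Mcm4, Gins1, Ccne2, Ccna2, Aurkb, Kif20a and Tpx2). Both strands were searched for the CHR element TTTGAA, the CCAAT box, which is bound by NF-Y, and the E2F-type words TTTCCCGC, TTTGGCGC, TTTCGCGC and TTTGCCGC. The CHR element was in 17 of 22 mitotic windows (77.3%) and in 2 of 15 replication windows (13.3%), compared with 18.1% of the windows of all 27025 genes. In 16 of the 17 it began within 50 bases of the start, which held for 4.92% of all windows. The E2F-type words showed the opposite split, with 6 of 15 replication windows (40.0%), 1 of 22 mitotic windows (4.55%) and 2.32% of all. CCAAT boxes were in 18 mitotic and 9 replication windows (81.8% and 60.0%), compared with 37.9% of all windows, and 15 mitotic windows held a CCAAT box and a CHR element (7.12% of all windows). Only 1 pair of matches to different motifs overlapped in these windows. A match describes the letters of the window and does not show that a factor binds there.

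The 150 bases before the start are printed for 3 genes of each set, to show how such matches lie in single promoters, exceptions to the counts included. Capitals mark matches on either strand, and each run is given in the direction of its gene. The mitotic examples are Mki67 (chr7:135716380-135716529, minus strand), Top2a (chr11:99024190-99024339, minus strand) and Cdk1 (chr10:69352913-69353062, minus strand).
Mki67: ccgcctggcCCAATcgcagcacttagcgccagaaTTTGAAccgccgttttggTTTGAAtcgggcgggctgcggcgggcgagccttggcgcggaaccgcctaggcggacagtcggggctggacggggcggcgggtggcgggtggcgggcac
Top2a: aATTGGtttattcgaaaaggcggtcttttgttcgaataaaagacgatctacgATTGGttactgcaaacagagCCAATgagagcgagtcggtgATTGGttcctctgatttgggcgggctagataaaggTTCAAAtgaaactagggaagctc
Cdk1: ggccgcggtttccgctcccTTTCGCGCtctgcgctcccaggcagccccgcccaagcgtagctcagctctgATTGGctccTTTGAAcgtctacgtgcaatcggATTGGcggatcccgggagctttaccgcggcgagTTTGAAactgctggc
The replication examples are Mcm2 (chr6:88898781-88898930, minus strand), Mcm5 (chr8:75109359-75109508, plus strand) and Rrm2 (chr12:24708104-24708253, plus strand).
Mcm2: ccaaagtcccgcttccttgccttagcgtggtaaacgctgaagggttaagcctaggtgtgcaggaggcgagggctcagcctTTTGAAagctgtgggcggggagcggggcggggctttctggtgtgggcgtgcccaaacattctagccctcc
Mcm5: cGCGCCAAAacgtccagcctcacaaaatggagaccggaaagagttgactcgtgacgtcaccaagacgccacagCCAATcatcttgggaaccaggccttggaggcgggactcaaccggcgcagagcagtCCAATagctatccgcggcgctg
Rrm2: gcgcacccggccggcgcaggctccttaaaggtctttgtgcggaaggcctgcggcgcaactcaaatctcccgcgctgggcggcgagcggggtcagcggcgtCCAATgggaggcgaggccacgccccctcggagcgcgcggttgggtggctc
In Mki67, the CHR elements lay at -116 and -98, whereas each of the other 16 mitotic windows with a CHR element held one within 50 bases of the start. In Top2a, CCAAT boxes on both strands precede a CHR element that begins 23 bases before the start (position -23). Cdk1 was the 1 mitotic window with an E2F-type word, at position -131, and it also held CHR elements at -71 and -15. Mcm2 was 1 of the 2 replication windows with a CHR element. Mcm5 held overlapping E2F-type words that begin at -153 and at -149, together with CCAAT boxes at -77 and -22. The word at -153 begins before the printed run and lies only partly in it.

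**Figure D1:**
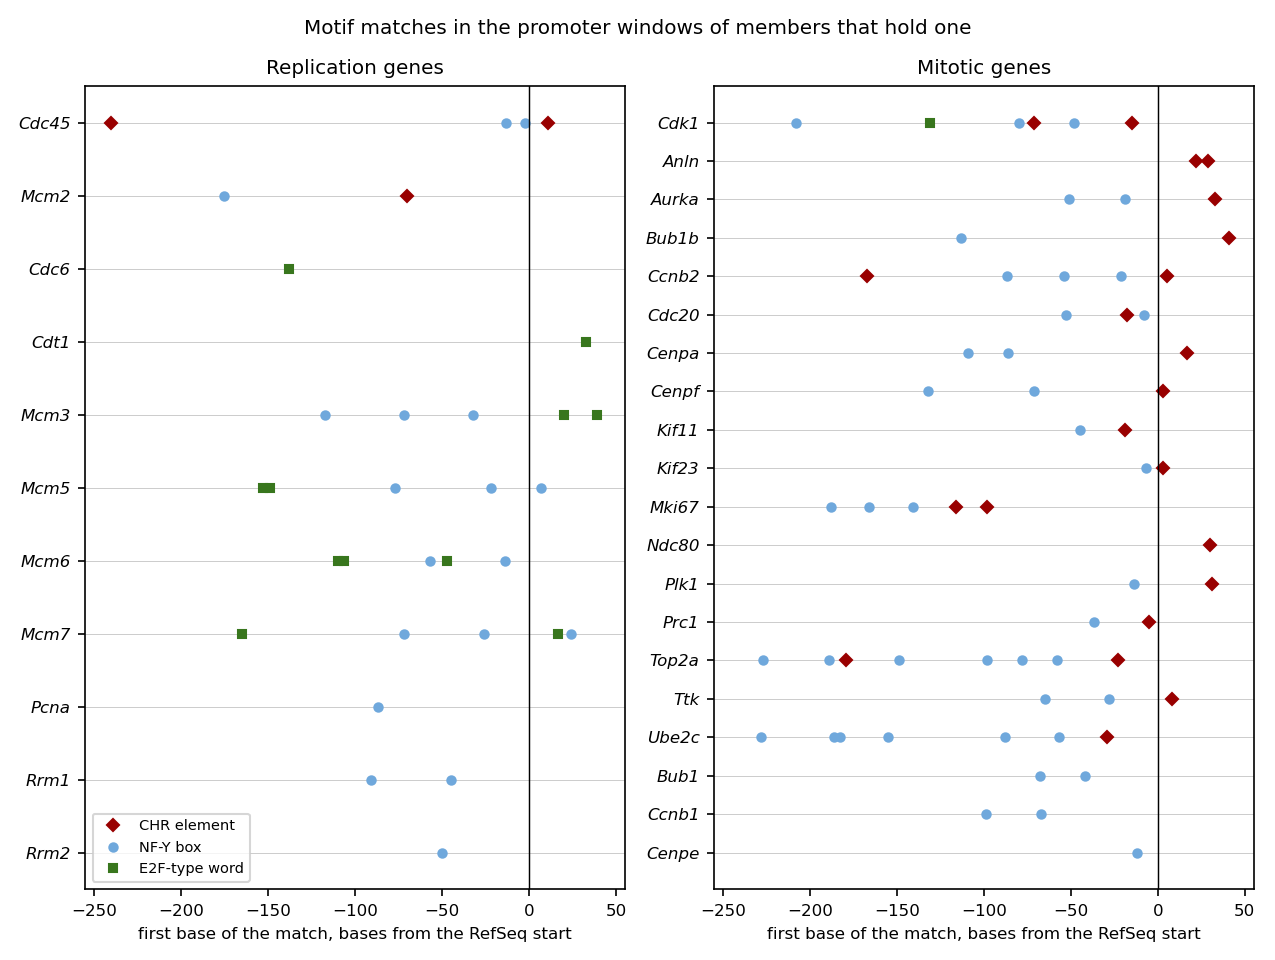
Position of each motif match (x axis, bases from the RefSeq start at 0; negative is upstream) in the promoter windows of the 11 replication genes and 20 mitotic genes that held one (rows). Diamonds are CHR elements, circles are CCAAT boxes (drawn as NF-Y box) and squares are E2F-type words; CHR elements of mitotic genes gather around the start, and E2F-type words lie in the replication panel except for Cdk1.

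At 3 dpi, cell cycle transcripts were abundant in FAPs of both genotypes. Per library, the 18 replication genes summed to 1246 and 1543 TPM in control and to 1472 and 1521 TPM in Osr1cKO FAPs. The 26 mitotic genes summed to 1312 and 1548 TPM in control and to 1571 and 1859 TPM in Osr1cKO FAPs. At 7 dpi, the replication sums were 330 and 294 TPM in control against 393 and 415 TPM in Osr1cKO, and the mitotic sums were 214 and 138 TPM in control against 316 and 293 TPM in Osr1cKO. No library of one day overlapped with the other day in either sum, and at 7 dpi the genotypes did not overlap either. These sums are of TPM as deposited, without scaling. On that scale, 7098 of 16578 genes lay higher in Osr1cKO without overlap at 7 dpi, and 1769 lay lower. The median log2 fold change of all genes was then 0.11. In sorted bulk RNA, fewer dividing cells and less cell cycle RNA per cell cannot be told apart.

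**Figure D2:**
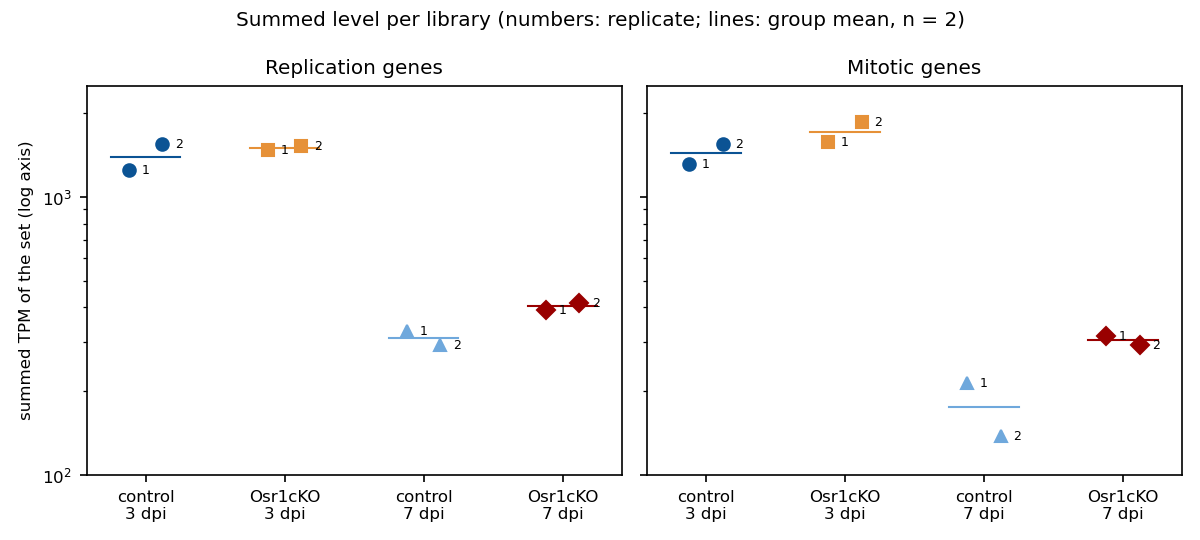
Summed TPM (y axis, log scale) of the replication genes and of the mitotic genes in each of the 8 libraries (points, numbered by replicate), with the mean of each group of 2 as a line. Mitotic sums lie between 1312 and 1859 TPM at 3 dpi and between 138 and 316 TPM at 7 dpi.

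The first comparison asked how these genes changed from 3 to 7 dpi. All 44 fell in control FAPs and all 44 fell in Osr1cKO FAPs (fold change over 1.2 and Benjamini-Hochberg adjusted p under 0.05 in limma over all 8 libraries). Of all 17371 genes tested, 20.0% were called lower in control and 17.1% in Osr1cKO. For every one of the 44 genes, all libraries of 7 dpi lay below all libraries of 3 dpi of the same genotype, compared with 31.8% and 31.2% of all genes. The median log2 fold change on the log2(TPM + 1) scale was -2.20 for replication genes and -2.66 for mitotic genes in control, and -1.97 and -2.27 in Osr1cKO, while the median of all genes was 0.11 and 0.12. The genotypes rest on separate libraries, but day goes with the number of pooled mice and possibly with the sequencing run, from which it cannot be told apart.

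Among the replication genes, the helicase subunits Mcm5 and Mcm3 fell furthest in both genotypes. Mcm5 was at 103 and 144 TPM in control against 135 and 135 TPM in Osr1cKO at 3 dpi, and at 9.50 and 5.72 TPM in control against 12.4 and 14.4 TPM in Osr1cKO at 7 dpi. Its log2 fold change was -3.67 in control (SE 0.24, adjusted p = 0.000211, limma) and -3.16 in Osr1cKO (SE 0.24, adjusted p = 0.000548, limma). Mcm2 fell from 42.0 and 57.9 TPM to 6.26 and 4.39 TPM in control, and from 54.0 and 52.8 TPM to 7.95 and 7.21 TPM in Osr1cKO (log2 fold changes of -2.82 and -2.58). The other Mcm subunits lay between -3.11 (Mcm3) and -2.10 (Mcm4) in control and between -2.81 and -1.92 (Mcm6) in Osr1cKO. Mcm7 overlaps genes on the opposite strand, and since the sources used here do not give whether strand was used in counting, its level is uncertain. The same holds for Cdc45, Ccna2, Kif20a, Ube2c and Cdc20.

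Genes of origin licensing and nucleotide supply differed more among themselves. Gins1, part of the helicase activator, fell from 20.9 and 22.8 TPM to 2.33 and 2.09 TPM in control and from 20.9 and 22.6 TPM to 4.53 and 4.94 TPM in Osr1cKO (log2 fold changes of -2.66 and -1.91). Cdc6, which loads the helicase, was at 13.9 and 19.3 TPM in control at 3 dpi and at 2.52 and 2.25 TPM at 7 dpi, and in Osr1cKO at 18.4 and 15.9 TPM and then at 2.74 and 3.58 TPM (log2 fold changes of -2.19 and -2.05). Its licensing partner Cdt1 fell less, with 68.0 and 73.3 TPM and then 35.4 and 27.7 TPM in control, and 66.1 and 74.1 TPM and then 44.3 and 44.2 TPM in Osr1cKO (log2 fold changes of -0.94 and -0.56). Rrm2, the S phase subunit of ribonucleotide reductase, was the second most abundant replication gene at 3 dpi. It fell from 166 and 194 TPM to 26.6 and 21.3 TPM in control and from 208 and 235 TPM to 30.9 and 33.3 TPM in Osr1cKO. Its log2 fold change was -2.66 in each genotype (SE 0.14, adjusted p = 0.000139 and 0.000411, limma). Rrm1 and Cdc45 fell by log2 fold changes of -2.15 and -2.52 in control and of -1.97 and -2.22 in Osr1cKO. Tk1 and Tyms lay at -2.96 and -2.02 in control and at -2.37 and -1.84 in Osr1cKO. Tk1 overlaps Afmid on the opposite strand, and Tyms has a pseudogene copy in the annotation.

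Beside Cdt1, the smallest falls were those of Pcna, cyclin E1 and E2f1. Pcna, the sliding clamp that also serves DNA repair, was at 213 and 251 TPM in control against 245 and 244 TPM in Osr1cKO at 3 dpi, and still at 115 and 113 TPM in control against 121 and 139 TPM in Osr1cKO at 7 dpi. The log2 fold changes of Pcna were -0.81 and -0.82 (SE 0.11 in both, adjusted p = 0.00165 and 0.00213, limma), and it was the most abundant of the 44 genes on each day. Pseudogene copies of Pcna are annotated. E2f1, a transcription factor for S phase genes, fell from 42.7 and 49.9 TPM to 13.3 and 15.4 TPM in control and from 49.5 and 45.3 TPM to 14.9 and 16.4 TPM in Osr1cKO (log2 fold changes of -1.42 and -1.45). Ccne1 was at 27.3 and 33.6 TPM and then 16.2 and 11.6 TPM in control, and at 30.2 and 31.3 TPM and then 16.9 and 17.1 TPM in Osr1cKO (log2 fold changes of -0.88 and -0.74). Its relative Ccne2 fell further, by log2 fold changes of -1.89 and -1.74, but it overlaps Ints8 on the opposite strand.

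**Figure D3:**
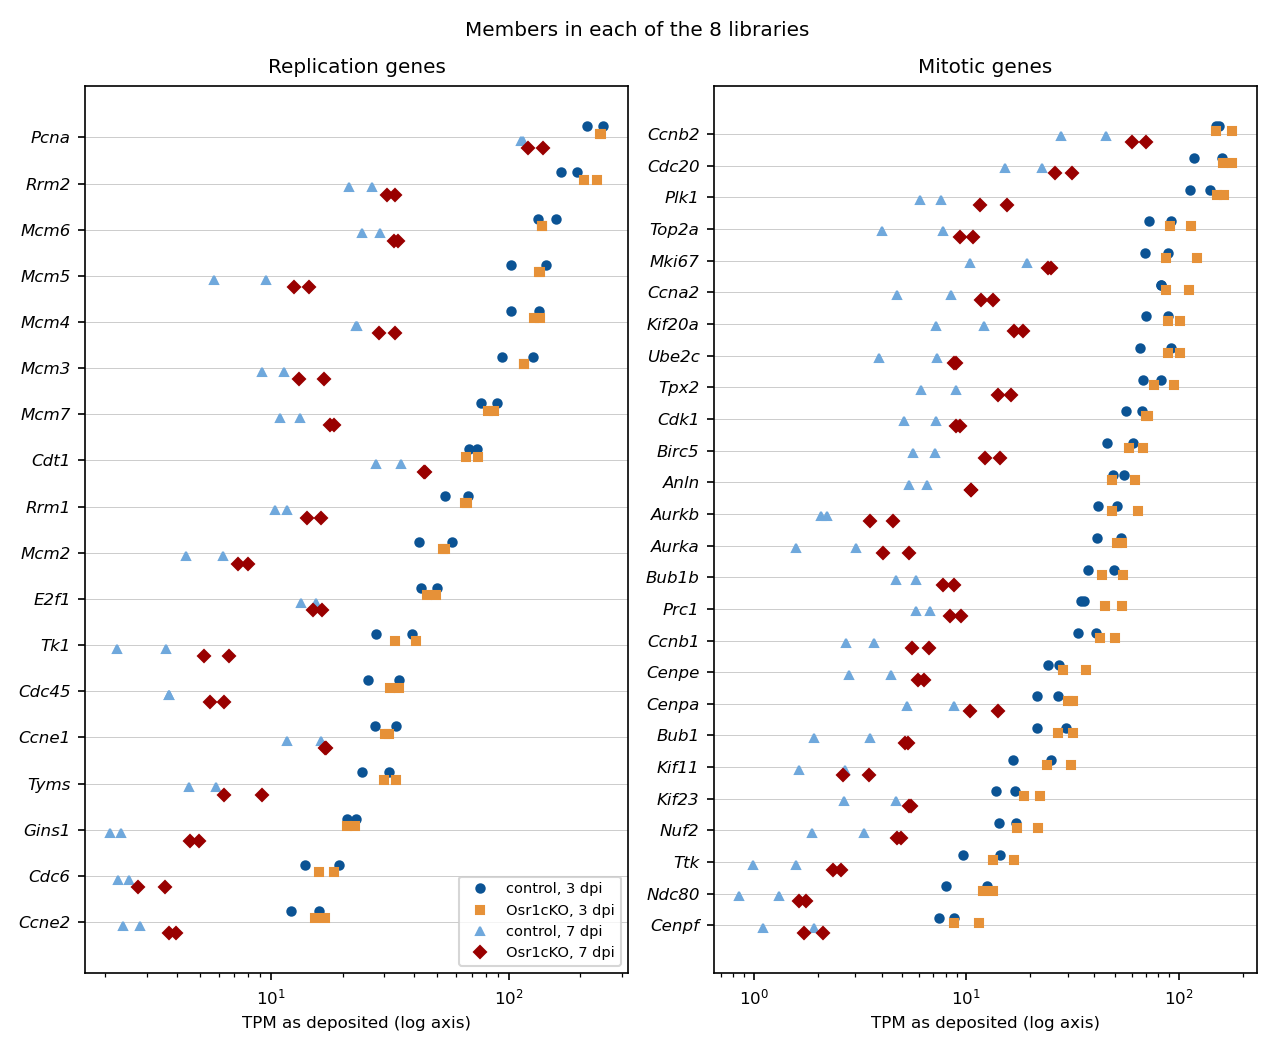
TPM as deposited (x axis, log scale) of each replication gene and each mitotic gene (rows, ordered by mean level at 3 dpi) in the 8 libraries, with 1 point per library. Every point of 7 dpi lies left of every point of 3 dpi of the same genotype, and Pcna, Cdt1 and Ccne1 show the narrowest gaps.

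Plk1 and Aurkb showed the deepest falls of the mitotic genes in both genotypes. Aurkb, the kinase of the chromosomal passenger complex, was at 41.9 and 50.9 TPM in control against 48.4 and 64.4 TPM in Osr1cKO at 3 dpi, and at 2.20 and 2.06 TPM and 3.53 and 4.52 TPM at 7 dpi. Its log2 fold change was -3.74 in control (SE 0.18, adjusted p = 0.000139, limma) and -3.42 in Osr1cKO (SE 0.18, adjusted p = 0.000411, limma). Plk1, which acts at centrosomes and kinetochores, fell from 113 and 140 TPM to 7.64 and 6.06 TPM in control and from 152 and 163 TPM to 15.6 and 11.6 TPM in Osr1cKO (log2 fold changes of -3.83 and -3.37). With a gene model on its opposite strand, the level of Plk1 is uncertain. Aurka, the spindle pole kinase, fell by log2 fold changes of -3.73 and -3.15.

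Cdk1 and its cyclins fell together. Cdk1 was at 56.7 and 67.5 TPM in control against 71.4 and 70.3 TPM in Osr1cKO at 3 dpi, and at 7.20 and 5.09 TPM and 9.36 and 8.92 TPM at 7 dpi (log2 fold changes of -2.96 and -2.74). Ccnb1, which activates it, fell from 33.6 and 40.8 TPM to 3.70 and 2.71 TPM in control and from 42.5 and 50.3 TPM to 6.68 and 5.55 TPM in Osr1cKO (log2 fold changes of -3.01 and -2.65); pseudogene copies of Ccnb1 and Ccnb2 are annotated. Ccnb2, another B-type cyclin, fell less, from 155 and 150 TPM to 45.6 and 28.0 TPM in control and from 150 and 179 TPM to 69.8 and 60.4 TPM in Osr1cKO (log2 fold changes of -1.85 and -1.24).

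Genes of the chromosome, centromere and spindle covered the rest of the range. Mki67, the antigen used to count dividing cells, was at 69.3 and 88.5 TPM in control against 87.3 and 122 TPM in Osr1cKO at 3 dpi, and at 19.4 and 10.4 TPM and 24.1 and 25.1 TPM at 7 dpi (log2 fold changes of -2.18 and -1.94). Top2a, the topoisomerase that untangles sister chromatids, fell from 72.3 and 91.9 TPM to 7.80 and 4.02 TPM in control and from 90.7 and 115 TPM to 9.31 and 10.8 TPM in Osr1cKO (log2 fold changes of -3.44 and -3.14). Cenpa, the histone variant of centromeres, had the smallest fall of the mitotic genes. It went from 21.4 and 27.2 TPM to 8.74 and 5.26 TPM in control and from 30.2 and 31.8 TPM to 14.2 and 10.4 TPM in Osr1cKO, log2 fold changes of -1.49 (SE 0.26, adjusted p = 0.00361, limma) and -1.20 (SE 0.26, adjusted p = 0.0105, limma). Kif11, the motor that pushes spindle poles apart, fell from 16.6 and 25.0 TPM to 2.69 and 1.63 TPM in control and from 24.0 and 31.1 TPM to 2.62 and 3.50 TPM in Osr1cKO (log2 fold changes of -2.61 and -2.73). Anln, a scaffold of the cytokinetic ring, and Prc1, a bundler of midzone microtubules, fell by log2 fold changes of -2.74 and -2.13 in control and of -2.20 and -2.26 in Osr1cKO. The remaining 14 mitotic genes lay between -3.43 (Ube2c, the ubiquitin-conjugating enzyme of the anaphase-promoting complex) and -1.66 (Kif23, a motor of the midzone) in control and between -3.20 and -1.66, with the same genes at the ends, in Osr1cKO.

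**Figure D4:**
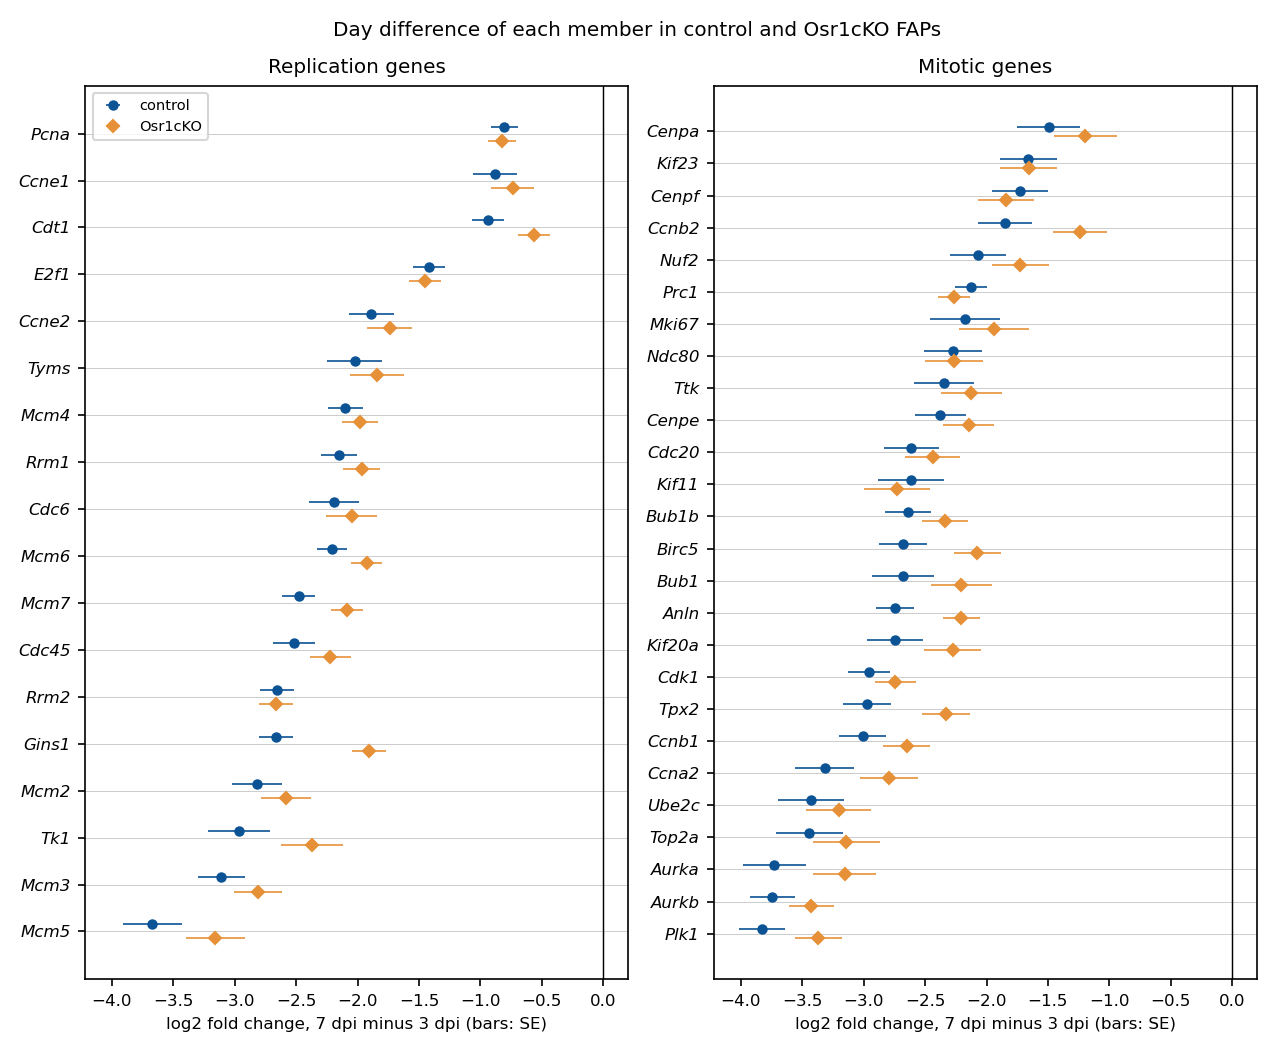
Log2 fold change from 3 to 7 dpi with its standard error (x axis, 7 dpi minus 3 dpi, limma) of each gene in control (circles) and Osr1cKO FAPs (diamonds), n = 2 libraries per group. All 44 values are below 0 in both genotypes, from -3.83 for Plk1 in control to -0.56 for Cdt1 in Osr1cKO.

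Other genes of replication and mitosis also fell with day, whereas CDK inhibitors moved both ways. In control, 46 of 50 further replication genes and 79 of 82 further mitotic genes fell and 0 rose. In Osr1cKO, 47 of 50 and 76 of 82 fell and 0 rose. Of all genes, 20.0% were called lower in control and 17.1% in Osr1cKO. Chaf1b, a chromatin assembly subunit, and Gtse1, a G2 and M phase protein, had the smallest p of their lists in control (log2 fold changes of -2.92 and -3.56). Of 27 G1 cyclins, CDKs and E2F or DREAM regulators, 15 fell in each genotype while 3 rose in control and 1 in Osr1cKO, compared with 26.3% and 23.1% of all genes called higher. Pkmyt1, a kinase that restrains Cdk1, fell by log2 fold changes of -2.37 and -2.28. The transcription factors Foxm1 and Mybl2, which drive mitotic genes, fell by log2 fold changes of -2.78 and -3.19 in control and of -2.14 and -2.77 in Osr1cKO. Of 21 CDK inhibitors and quiescence genes, 11 rose and 5 fell in each genotype, beside the same shares of all genes. Gadd45a, a growth arrest gene, had the smallest p among those that rose (1.95 and 1.61 in control and Osr1cKO). Cdkn1b (p27) rose by 1.62 and 1.60 and Cdkn1c (p57) by 3.18 and 3.33 in control and Osr1cKO. The control libraries of Cdkn1c at 3 dpi lay far apart, at 69.4 TPM in library 1 and 15.6 TPM in library 2. Cdkn1a (p21) had log2 fold changes of -0.21 and 0.42 in control and Osr1cKO that did not pass (adjusted p = 0.340 and 0.0840, limma). Ccnd1, a cyclin of G1 phase, fell from 176 and 106 TPM to 16.0 and 16.3 TPM in control and from 88.0 and 87.4 TPM to 14.4 and 19.3 TPM in Osr1cKO.

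Marker genes of other cells moved with day. The summed level of 13 myeloid markers was 31.5 to 38.1 TPM at 3 dpi and 65.9 to 114 TPM at 7 dpi, that of 7 myofiber markers 8.42 to 14.2 TPM and 43.1 to 75.0 TPM, and that of 9 muscle stem cell and myoblast markers 70.1 to 140 TPM and 142 to 194 TPM. Endothelial markers (8 genes) summed to 17.3 to 45.0 TPM at 3 dpi and to 47.8 to 73.2 TPM at 7 dpi. Single genes made up much of these sums. Vcam1 gave 53.6 to 133 TPM of the muscle stem cell sum, and Tek 14.9 to 58.4 TPM of the endothelial sum. Pax7, Myod1, Myf5 and Myog did not exceed 0.110 TPM at 3 dpi, and reached up to 14.1 TPM (Myog) at 7 dpi. Pecam1 and Cdh5 did not exceed 6.25 TPM. The part of other cells in the fall of the cell cycle genes was not tested. Of the 12 FAP markers, 7 rose in each genotype, compared with 26.3% of all genes in control and 23.1% in Osr1cKO. Pdgfra and Ly6a fell in control (log2 fold changes of -0.54 and -1.31), where 20.0% of all genes were called lower.

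The comparison of genotypes at 7 dpi gave higher RNA values in Osr1cKO FAPs for nearly all of these genes. None passed the limits of the study as applied here to limma. The study applied them to DESeq2 and reported far more genes at 7 dpi, so its calls and those given here are not alike. With a fold change over 1.2 and an adjusted p under 0.1, 0 of the 44 genes were called higher and 0 lower by limma, compared with 0.0181% and 0.0483% of 16578 genes tested. At an unadjusted p under 0.05, 22 of the 44 (7 replication and 15 mitotic genes) were higher and 0 were lower, compared with 5.09% and 6.04% of all genes. The 22 were Gins1, Mcm4, Mcm5, Mcm7, Tk1, Cdc45 and Cdt1, and Birc5, Tpx2, Anln, Plk1, Aurka, Aurkb, Ccnb1, Ccnb2, Ccna2, Kif20a, Bub1, Bub1b, Ttk, Nuf2 and Cenpe. The log2 fold change was above 0 for 43 of 44 genes and for 50.1% of all genes, and its median was 0.33 for replication genes, 0.61 for mitotic genes and 0.00 for all genes tested. Both Osr1cKO libraries lay above both control libraries for 38 genes (14 replication and 24 mitotic, after scaling), compared with 22.5% of all genes. The exceptions were Pcna, Tyms, E2f1, Ccne1, Kif11 and Cenpf. By limma-voom on the recovered fragments, 3 of the 44 were called higher (Birc5, Tpx2 and Anln). That method also called far more genes of the whole table than limma, as counted in the section on processing.

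Values of single mitotic genes show the extent of this difference. Birc5 (survivin, a subunit of the chromosomal passenger complex; chromosome 11, 117849251 to 117855743 of mm10) was at 7.14 and 5.62 TPM in control against 14.5 and 12.2 TPM in Osr1cKO, a mean of 6.38 ± 1.08 against 13.3 ± 1.61 TPM (SD, n = 2 libraries each). Its log2 fold change was 0.84 (SE 0.17, unadjusted p = 0.00344, adjusted p = 0.246, limma). Tpx2, which brings Aurora A to the spindle, was at 8.95 and 6.14 TPM in control against 14.1 and 16.2 TPM in Osr1cKO (0.81, SE 0.19, adjusted p = 0.267, limma). Anln (anillin) was at 6.55 and 5.38 TPM in control against 10.5 and 10.5 TPM in Osr1cKO (0.61, SE 0.14, adjusted p = 0.276, limma). None of these 3 genes had overlapping libraries between genotypes.

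The kinases and cyclins of mitosis lay in the same direction. Plk1 had a log2 fold change of 0.76 (SE 0.20, adjusted p = 0.295, limma), Aurkb of 0.57 (SE 0.16, adjusted p = 0.299, limma) and Ccnb1 of 0.65 (SE 0.19, adjusted p = 0.314, limma). The level of Aurkb was between 2.06 and 2.20 TPM in control and between 3.53 and 4.52 TPM in Osr1cKO, so its groups stood clear of each other at a low level. Cdk1 had a smaller difference of 0.40 (SE 0.18, adjusted p = 0.443, limma). Mki67 (0.62, SE 0.27) and Top2a (0.61, SE 0.28) had large standard errors, and their control libraries lay far apart, at 19.4 and 10.4 TPM for Mki67 and at 7.80 and 4.02 TPM for Top2a. Cenpa was at 0.63 (SE 0.27) and Kif11 at 0.28 (SE 0.22), and the libraries of Kif11 overlapped.

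Among replication genes, Gins1, a subunit of the helicase activator, stood first. Gins1 (chromosome 2, 150905400 to 150931280) was at 2.33 and 2.09 TPM in control against 4.53 and 4.94 TPM in Osr1cKO (0.73, SE 0.15, unadjusted p = 0.00310, adjusted p = 0.243, limma). The count behind the lower control value was 35 fragments, the fewest of any replication gene at 7 dpi. Mcm7 was at 13.3 and 10.9 TPM in control against 18.3 and 17.7 TPM in Osr1cKO (0.42, SE 0.13, adjusted p = 0.332, limma), and Tk1 at 3.59 and 2.25 TPM in control against 6.64 and 5.21 TPM in Osr1cKO (0.73, SE 0.23, adjusted p = 0.333, limma). Mcm5 and Mcm2 had log2 fold changes of 0.65 (SE 0.23) and 0.34 (SE 0.19), Rrm2 of 0.28 (SE 0.13) and Cdc6 of 0.19 (SE 0.16). The smallest differences among the replication genes named here were those of Ccne1 (0.16, SE 0.17), Pcna (0.05, SE 0.08) and E2f1 (-0.01, SE 0.11).

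The size of this difference depended on the control libraries. Control library 2 was the lowest of the 4 libraries of 7 dpi for 26 of 26 mitotic and 16 of 18 replication genes. Without it, 7 of the 44 genes were higher at an unadjusted p under 0.05 and the mitotic median was 0.33. Without control library 1, 32 were higher, 17 were called at the adjusted threshold (together with 553 of all genes) and the mitotic median was 0.86. The difference of Mki67 was 0.20 without control library 2 and 1.04 without control library 1, while that of Birc5 was 0.69 and 0.99. Without Osr1cKO library 1, 9 of the 44 genes were higher at an unadjusted p under 0.05. Control library 1, the higher one, also held more muscle stem cell transcripts, with Myog at 14.1 TPM and Pax7 at 2.30 TPM, compared with 1.94 to 3.34 and 0.170 to 0.444 TPM in the other 3 libraries of 7 dpi. The sum of 13 myeloid markers was 65.9 and 74.6 TPM in control against 90.4 and 114 TPM in Osr1cKO (12 of 13 had a log2 fold change above 0), and that of 7 myofiber markers was 75.0 and 63.6 against 43.1 and 44.1 TPM (6 of 7 below 0). Endothelial markers had log2 fold changes above 0 for 7 of 8 genes, with Cdh5 at 2.32 and 2.13 TPM in control against 4.16 and 3.74 TPM in Osr1cKO. What these cells, or the sex of the mice given above, contributed was not tested.

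**Figure D5:**
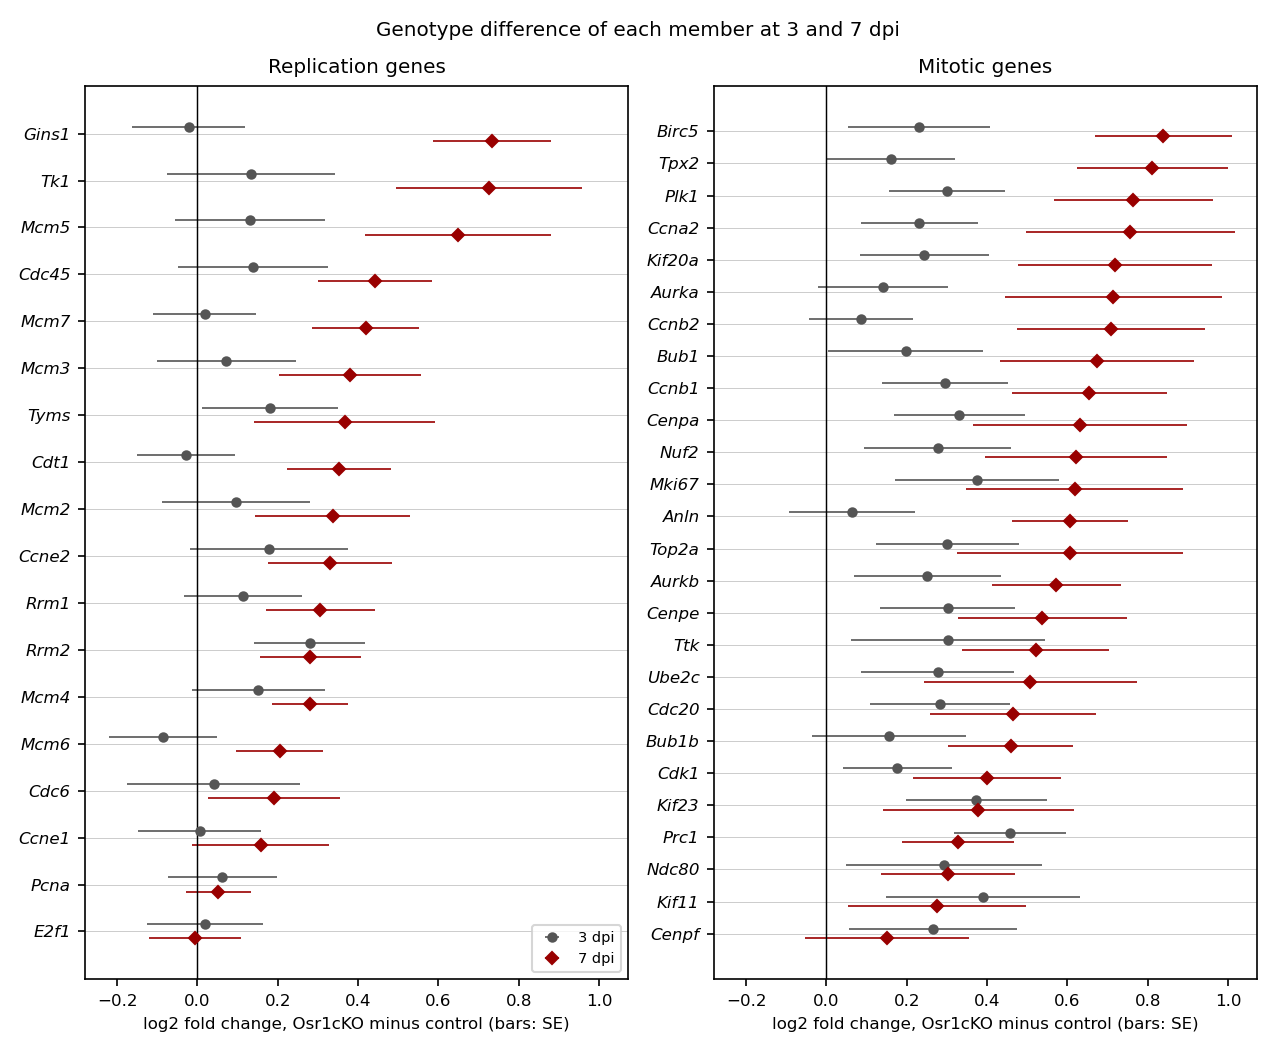
Log2 fold change of Osr1cKO over control with its standard error (x axis, limma) of each gene at 3 dpi (circles) and 7 dpi (diamonds), n = 2 libraries per group. At 7 dpi 43 of 44 values and at 3 dpi 41 of 44 values are above 0, and the error bars at 3 dpi often reach 0.

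At 3 dpi, a single gene of the 44 passed the threshold in the genotype comparison. Prc1 was called higher in Osr1cKO (fold change over 1.2 and unadjusted p under 0.05, the threshold of the study at this day) and 0 were called lower, compared with 2.21% and 4.07% of 15699 genes tested. Prc1 (chromosome 7, 80294450 to 80316259) rose from 36.0 and 34.5 TPM in control to 45.0 and 54.2 TPM in Osr1cKO, with a log2 fold change of 0.46 (SE 0.14, unadjusted p = 0.0212, adjusted p = 0.774, limma). It overlaps Rccd1 on the opposite strand, and without control library 2 or without Osr1cKO library 2 its unadjusted p was 0.053 or 0.179 (limma). At an adjusted p under 0.1, 0 genes were called over the whole table at this day (smallest adjusted p 0.313, limma).

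The log2 fold change at 3 dpi was above 0 for all 26 mitotic genes and for 15 of 18 replication genes, compared with 48.8% of all genes. Its median was 0.28 for mitotic genes and 0.08 for replication genes, beside -0.01 for all genes. Both Osr1cKO libraries lay above both control libraries for 12 mitotic genes and 1 replication gene (Rrm2), compared with 16.9% of all genes. Next to Prc1, the smallest p-values among mitotic genes were those of Kif23 (0.37, SE 0.18) and Plk1 (0.30, SE 0.14). Mki67 had a log2 fold change of 0.37 (SE 0.20), Top2a of 0.30 (SE 0.18), Kif11 of 0.39 (SE 0.24), Cenpa of 0.33 (SE 0.16) and Ccnb1 of 0.30 (SE 0.16). Aurkb (0.25, SE 0.18), Birc5 (0.23, SE 0.18) and Cdk1 (0.18, SE 0.14) followed.

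Among replication genes at 3 dpi, Rrm2 had the largest difference, 0.28 (SE 0.14, adjusted p = 0.833, limma), before Tyms (0.18, SE 0.17), Ccne2 (0.18, SE 0.20) and Mcm4 (0.15, SE 0.17). Mcm5 (0.13, SE 0.19), Mcm2 (0.10, SE 0.18), Pcna (0.06, SE 0.14), Cdc6 (0.04, SE 0.22), E2f1 (0.02, SE 0.14) and Ccne1 (0.01, SE 0.15) were smaller than their standard errors. Mcm6 (-0.09, SE 0.13), Cdt1 (-0.03, SE 0.12) and Gins1 (-0.02, SE 0.14) were the 3 genes below 0.

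Control library 1 stood apart at 3 dpi. It was the lowest of the 4 libraries for 16 of 18 replication and 21 of 26 mitotic genes. Among FAP markers it had the lowest Col1a1 (12404 TPM) and Col3a1 (6401 TPM) but the highest Pdgfra (365 TPM) and Ly6a (5407 TPM) of the 4. Without it, the replication median turned to -0.09 and the mitotic median was 0.11. Without control library 2, these medians were 0.27 and 0.42 and 13 of the 44 genes were called higher, while the calls over all genes went from 986 to 2764. Osr1cKO library 2 was the highest library for 24 of 26 mitotic genes. Endothelial markers summed to 45.0 and 21.7 TPM in control against 17.3 and 18.1 TPM in Osr1cKO at this day. Of these, 6 of 6 tested were below 0, and 5 were lower without overlap, as were 19.4% of all genes. Of the 12 FAP markers, Ly6a and Osr1 were called lower in Osr1cKO, beside 4.07% of all genes. The part of these marker genes in the differences was not tested.

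Whether the genotype difference itself changed between days was tested as the interaction of genotype and day. None of the 44 genes was called (adjusted p under 0.05, limma; 0 of all 17371 genes tested and 0 with limma-voom). Of the 44, 38 had an interaction above 0, compared with 51.5% of all genes. By unadjusted p (under 0.05, with the same fold limit), 3 of the 44 had a larger difference at 7 dpi and 0 a smaller one, compared with 3.78% and 3.10% of all genes. These were Gins1 (0.75, SE 0.19, unadjusted p = 0.00574, adjusted p = 0.593, limma), Anln (0.54, SE 0.22, adjusted p = 0.706, limma) and Tpx2 (0.65, SE 0.27, adjusted p = 0.725, limma). Birc5 followed at 0.60 (SE 0.27), Mcm7 at 0.39 (SE 0.19) and Cdt1 at 0.37 (SE 0.19). Values below 0 were seen for Prc1 (-0.13, SE 0.18), Cenpf (-0.12, SE 0.32), Kif11 (-0.12, SE 0.38), E2f1 (-0.03, SE 0.18), Pcna (-0.02, SE 0.16) and Rrm2 (-0.01, SE 0.20). Mki67 was at 0.24 (SE 0.40) and Top2a at 0.30 (SE 0.38).

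In the wider lists, the genotype comparison at 7 dpi gave no call either. With limma, 0 further replication genes (of 50) and 0 further mitotic genes (of 82) were called at the adjusted threshold. At an unadjusted p under 0.05, 8 and 38 of them were higher and 0 were lower, beside 5.09% and 6.04% of all genes, and their median log2 fold changes were 0.15 and 0.39. The smallest p-values belonged to Chaf1b (0.61, SE 0.14, adjusted p = 0.267, limma) and Orc1 (0.68, SE 0.17) among replication genes, and to Pbk (0.97, SE 0.20, adjusted p = 0.248, limma) and Cdca5 (0.73, SE 0.16) among mitotic genes. Of the 27 G1 and E2F or DREAM regulators, 1 was higher and 1 lower at this p, against the same shares of all genes. Foxm1, the 1 that was higher, was at 9.17 and 6.27 TPM in control against 14.3 and 11.4 TPM in Osr1cKO (0.56, SE 0.21, adjusted p = 0.382, limma), and Mybl2 had a log2 fold change of 0.43 (SE 0.26).

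Inhibitors lay on both sides at 7 dpi. Of 21 CDK inhibitors and quiescence genes, 2 were higher and 4 lower at an unadjusted p under 0.05 (5.09% and 6.04% of all genes) and 0 were called. Cdkn1c was at 253 and 280 TPM in control against 214 and 205 TPM in Osr1cKO (-0.48, SE 0.09, adjusted p = 0.222, limma), and Btg2, an antiproliferative gene, was at 461 and 558 TPM in control against 275 and 389 TPM in Osr1cKO (-0.77, SE 0.17, adjusted p = 0.265, limma). Cdkn1a (0.10, SE 0.12), Cdkn1b (-0.11, SE 0.08) and Ccnd1 (-0.09, SE 0.14) differed less. At 3 dpi, the median of the further replication genes was 0.06 and 0 of 50 were called, and that of the further mitotic genes was 0.20 with 1 of 82 called. That gene, Pttg1 (securin), fell from 51.9 and 41.5 TPM in control to 29.9 and 24.2 TPM in Osr1cKO (-0.78, SE 0.19, unadjusted p = 0.00949, adjusted p = 0.774, limma), against the direction of its list. Of the 21 CDK inhibitors and quiescence genes, 1 was called higher and 1 lower at 3 dpi (2.21% and 4.07% of all genes). Cdkn2c (p18) rose from 25.1 and 29.6 TPM in control to 35.9 and 36.6 TPM in Osr1cKO (0.38, SE 0.14, unadjusted p = 0.0435, adjusted p = 0.790, limma). Cdkn1a fell from 373 and 274 TPM to 208 and 238 TPM (-0.54, SE 0.19, unadjusted p = 0.0367, adjusted p = 0.786, limma). Control library 1 had the highest Cdkn1a level, and Ccnd1 (-0.65, SE 0.26, unadjusted p = 0.0513, limma) was at 176 TPM in it and at 87.4 to 106 TPM in the other 3 libraries. The genes of the wider lists were not refitted without single libraries.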

How the data were processed

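RNA-seq of GFP+ FAPs gave 8 libraries, 2 per genotype and day. Per the labels and the study's methods, the authors used STAR to align paired reads of stranded libraries to mm10, normalized fragment counts with DESeq2 and deposited TPM per gene symbol. The counter, its annotation and its use of strand are not given in the sources used here. Sequencers and read lengths are given differently in the labels and the methods, so the run of each day was not settled.

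Of 55385 entries per library, 109 repeated entries were left out. With GENCODE exon lengths (GRCm38), 98.7% to 98.9% of the values worth fewer than 50 fragments were whole to within 0.02, and fragments were recovered on this scale. Libraries were scaled with a trimmed mean (30%) of their log ratios. Genes reaching 10 fragments in 2 libraries and 15 in all were kept (symbols without a length at a mean TPM of at least 1), and log2(TPM + 1) was fitted with limma 3.58.1 (lmFit, eBayes with trend) in R 4.3.3. Fold changes on this scale understate those of low genes. Each day was fitted on its 4 libraries, and the day and interaction comparisons on all 8, with p-values adjusted over all genes tested. With 2 libraries per group, p-values rest on few samples, and counting error is only a part of the spread. The procedure was also run on simulated counts with the same spread for every gene. These hold no outlying library, so they do not show how it does on these data. Libraries of a group differed by more than sampling noise, so none was counted as a duplicate.

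Members and gene lists were chosen with earlier results of these data known. Genes named in full were Mki67, Top2a, Cdk1, Ccnb1, Aurkb, Birc5, Cenpa, Kif11, Mcm2, Mcm5, Pcna, Rrm2, Cdc6, Ccne1, E2f1 and, per comparison and set, the 3 of smallest p in each direction; from wider lists, the 2 of smallest p per direction, Foxm1, Mybl2, Cdkn1a, Cdkn1b, Cdkn1c and Ccnd1, of which some are given by their list only. All members could be named. Promoters were printed for the first 3 genes per set, in the order named here, that held a motif in the 150 bases and had at most 30 of them in annotated exons. Alternatives were no scaling, median of ratios, other filters, a pseudocount of 0.25, a replicate block, limma-voom, robust eBayes, 1 fit of all 8 libraries, a change of threshold, and omission of each library in turn. Python 3.11.15 with pandas 2.3.3 and matplotlib 3.10.9 was used for tables and plots.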

Additional observations from a re-analysis of the deposited data

How the results depend on the processing

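All 44 genes were called lower at 7 dpi in control under every alternative run, and in Osr1cKO 41 to 44 were called when single libraries were left out (41 without Osr1cKO library 2). In control, the replication median of -2.20 became -2.39 without scaling, -2.35 with a pseudocount of 0.25 and -2.38 with limma-voom, and the mitotic median of -2.66 became -2.84 without scaling and -2.94 with limma-voom. Scaling mattered for the whole table: without it, the median of all genes shifted by -0.14 (day in control), and 3246 genes were higher and 4690 lower in place of 4568 and 3474; in Osr1cKO the split was 3458 and 3505 in place of 4011 and 2970. At 7 dpi the shift between genotypes was 0.11, and 2282 genes were higher and 468 lower at an unadjusted p under 0.05 in place of 843 and 1001.

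At 3 dpi, all called genes numbered 986, but 1704 with a fit of all 8 libraries and 0 at an adjusted p under 0.1, where 0 of the 44 were called. At 7 dpi, 11 genes of the table were called, but 0 without scaling, under a mean TPM limit of 1, with no filter or with a fit of all 8 libraries, 221 with limma-voom and 1844 at an unadjusted p. Of the 44, limma-voom called 3 and the unadjusted p gave 22, which fell to 11 with no filter. For the interaction, 8 of the 44 in place of 3 had an unadjusted p under 0.05 without scaling, and 1 gene of the table was called under a mean TPM limit of 1 and 31 with no filter. The cause of these shifts was not tested. E2f1 turned to 0.12 without scaling and 2.3e-05 in a fit of all 8 libraries at 7 dpi. For the interaction, Pcna turned to 0.11, Rrm2 to 0.12 and E2f1 to 0.0873 without scaling, and Rrm2 to 0.0012 with a pseudocount of 0.25 and 0.0064 with limma-voom.

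Leaving out single libraries moved counts and medians as follows. At 3 dpi, 0 to 13 of the 44 genes and 495 to 2764 of all genes were called, and the replication median was -0.0873 to 0.27. At 7 dpi, 0 to 17 of the 44 and 13 to 553 of all genes were called, 7 to 32 of the 44 were higher at an unadjusted p, and the mitotic median was 0.33 to 0.86. For the interaction, 0 to 64 of all genes were called, 1 to 13 of the 44 had an unadjusted p under 0.05, and the medians were 0.0040 to 0.40 (replication) and 0.0383 to 0.61 (mitotic). For day, 4716 to 8098 genes were called in control and 3699 to 8153 in Osr1cKO, with control medians of -2.40 to -2.04 and -2.87 to -2.38. Single log2 fold changes that changed sign ranged at 3 dpi from -0.13 to 0.32 (Mcm2), -0.11 to 0.37 (Mcm5), -0.0542 to 0.17 (Pcna), -0.18 to 0.26 (Cdc6), -0.14 to 0.15 (Ccne1), -0.0921 to 0.12 (E2f1), -0.0473 to 0.35 (Mcm4), -0.21 to 0.0332 (Mcm6), -0.0865 to 0.0297 (Cdt1) and -0.0797 to 0.0312 (Gins1). At 7 dpi they ranged from -0.0208 to 0.13 (Pcna), -0.0732 to 0.39 (Ccne1) and -0.10 to 0.0859 (E2f1). For the interaction they ranged from -0.19 to 0.66 (Mki67), -0.11 to 0.72 (Top2a), -0.0020 to 0.44 (Cdk1), -0.0287 to 0.63 (Cenpa), -0.42 to 0.18 (Kif11), -0.0086 to 0.48 (Mcm2), -0.15 to 0.11 (Pcna), -0.16 to 0.15 (Rrm2), -0.10 to 0.38 (Cdc6), -0.0852 to 0.38 (Ccne1), -0.16 to 0.0933 (E2f1) and -0.36 to 0.13 (Cenpf).

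Same-numbered libraries shared only a number: their deviations correlated at -0.128 at 3 dpi and 0.0698 at 7 dpi over genes (-0.169 and 0.282 over the 44). With the replicate block, 957 genes and 1 of the 44 were called at 3 dpi, 10 genes and 0 of the 44 at 7 dpi (27 at an unadjusted p), 1 of the 44 had an unadjusted p under 0.05 for the interaction, and all 44 were called for day. With the crossed pairing at 3 dpi, chosen after seeing the data, 1267 genes and 1 of the 44 were called. Depth limits the lowest values, 35 fragments for Gins1 and 44 for Aurka at 7 dpi.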
